A study of Mus musculus with 3 samples.

Results

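Collagens are the proteins that form the fibrils and sheets of the extracellular matrix, built from polypeptide chains wound into a triple helix. The genes that encode these chains were taken from an RNA sequencing experiment on mouse neural stem cells in which the histone demethylase gene Phf2 was knocked down. This family, and the lists of related genes below, were chosen with earlier results of these data known. Its members were then set by symbol alone, as every gene named in the form Col, a number, a and a number. That gave 43 of the 16977 genes in the deposited table. The related symbols Col4a3bp, Colq, Colec11 and Colec12 do not have that form and encode no collagen chain of these types. Col13a1 and Col21a1 were not analysed here.

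The cells were neural stem cells of C57BL/6J mouse embryos at stage E12.5, grown as a layer on poly-D-lysine and laminin with EGF at 20 ng/ml and FGF at 10 ng/ml. One set of cells carried a lentivirus with a short hairpin RNA against Phf2 (shPHF2, 2 libraries described as biological replicates), and the other a lentivirus with a control hairpin (shControl, 1 library). Lentiviral infection and hairpin expression were thus common to both groups, and the sources used here do not say whether the shPHF2 libraries came from separate infections or whether cells were selected afterwards. PHF2 belongs to the Jumonji family of histone demethylases. With 1 control library its own error could not be estimated. Every p-value below takes its spread from differences between the shPHF2 libraries, shared across genes. In the main test (limma) a gene's own difference has 1 degree of freedom, against 6.94 for the trend over all genes.

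Collagen chains fall into families by the shape they assemble into. Fibrillar collagens (types I, II, III, V, XI, XXIV and XXVII) form the rope-like fibrils of connective tissue, type IV forms the network of basement membranes, and the FACIT collagens (fibril-associated collagens with interrupted triple helices) sit on the surface of fibrils. Multiplexins lie in basement membrane zones, type VI forms beaded filaments, and a few collagens span the plasma membrane. In the embryonic brain the collagen-rich layers are mainly the pial basement membrane, the meninges and the vessels, and neural progenitors attach to the pial surface through their end-feet.

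The table accounted for 96663129 and 68231147 reads in the shPHF2 libraries (replicates 1 and 2) and 85219384 in shControl, of which 38.5% to 38.6% were assigned to genes. Values are given as normalised reads, meaning reads scaled by a per-library size factor. Phf2 had 985 and 714 normalised reads in the shPHF2 libraries, against 2593 in shControl. Its shPHF2 mean of 849 ± 192 (SD, n = 2) was below the control, with a log2 fold change of -1.63 (limma, SE 0.24, adjusted p = 0.0085). The neural stem cell markers Vim and Nes were abundant. There were 101381 and 98053 normalised reads of Nes in shPHF2 against 118161 in shControl, and 116785 and 132042 of Vim in shPHF2 against 77235 in shControl. By limma 1 of 10 markers of that list was called (Sox2, higher), against 14.3% of all genes tested.

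Markers of other cell types were present at mixed levels. Of 11 fibroblast and meningeal markers 9 had a row, and they summed to 8008 and 6603 normalised reads in the shPHF2 libraries and 5463 in shControl. Foxc1, a forkhead transcription factor gene of the meninges, was called higher, with 5516 and 4919 normalised reads in shPHF2 against 1994 in shControl. The matrix genes Fn1 and Fbln1 were also well expressed and were below the control in both shPHF2 libraries, with 1278 and 719 against 1574 and with 1057 and 687 against 1650, neither called. Without Foxc1, a split made after its values were seen, the sums were 2492 and 1684 in shPHF2 and 3470 in shControl. Dcn, Pdgfrb, Postn and Twist1 stayed below 10 normalised reads in each library.

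The 8 pericyte and smooth muscle markers summed to 324 and 240 normalised reads in shPHF2 and 230 in shControl, led by Tagln and Acta2, and 0 of 4 tested were called. Rgs5 had 24.2 and 38.6 normalised reads in shPHF2 against 2.99 in shControl, and Anpep 10.0 and 10.9 against 2.99. These genes, with Abcc9 and Tagln, were above shControl in both shPHF2 libraries, while Acta2, Myh11 and Des were below it in both. The 10 endothelial markers summed to 959 and 632 in shPHF2 and 558 in shControl. Of 6 tested, the sialomucin gene Emcn was called, with 494 and 345 normalised reads in shPHF2 against 127 in shControl, while the receptor gene Kdr had 156 and 77.2 against 200.4. Tek and Egfl7 had 78.4 to 165 normalised reads over the libraries, and Pecam1, Tie1 and Cldn5 were below 10 in each. The 4 astrocyte markers with a row summed to 1263 and 1917 in shPHF2 and 478 in shControl, and S100b was called, with 1094 and 850 against 331, while Aldh1l1 was high in replicate 2 alone, with 152 and 1009 against 146. The neuron sum of 38282 and 39009 normalised reads in shPHF2 against 60341 in shControl was almost all Map2, with 37935 and 38518 against 60020. Tubb3 lay on the other side of the control, with 198 and 346 normalised reads in shPHF2 against 104 in shControl. The oligodendrocyte lineage sum of 64782 and 84089 in shPHF2 against 69507 in shControl was mainly Olig1 and Olig2, and Pdgfra was below the control with 303 and 159 against 539. The microglia markers summed to 234 and 227 against 111, mostly P2ry12 and then Csf1r. None of the 5, 5 and 2 markers tested in these last lists was called by limma. Markers named here that were neither called nor among the leading pair of their list were picked with their values in view. What part other cell types had in the collagen values was not tested, and in bulk RNA a change in the number of cells of a type cannot be told apart from a change in RNA per cell.

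Collagen transcripts in these cells were mainly those of types IV, V, IX, XII, XVI and XXVIII, and the bulk collagens of connective tissue were almost absent. On the scale of normalised reads per kilobase of annotated exon, which allows levels to be compared between genes, Col28a1 was highest, with 1023 and 557 in the shPHF2 libraries and 575 in shControl. Col28a1 encodes the type XXVIII chain, a collagen with von Willebrand factor A domains. It made up 27.6% and 18.2% of the summed level of all 43 genes in shPHF2 and 21.6% in shControl. Col5a2 had 387 and 342 per kilobase in shPHF2 against 260 in shControl, Col5a3 383 and 378 against 223, Col4a5 365 and 408 against 287, and Col4a1 370.0 and 212 against 369. The order of these 4 genes differed between libraries, so it is not resolved with these libraries. The 8 highest genes of each library held 86.5% and 80.9% of the collagen level in shPHF2 and 85.2% in shControl. The sum over the family was 3708 and 3064 reads per kilobase in the shPHF2 libraries, above the 2666 of shControl in both.

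The chains of types I and III, the main fibrillar collagens of skin, bone and vessel walls, were at the edge of detection. Col1a1 had 1 read and 0 reads in the shPHF2 libraries and 3 reads in shControl, Col1a2 had 1 and 4 reads against 0, and Col3a1 had 8 and 2 reads against 3. These are too few to compare between groups. Each of these 3 genes stayed under 1 normalised read per kilobase in each library, far below the type V chains.

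**Figure D1:**
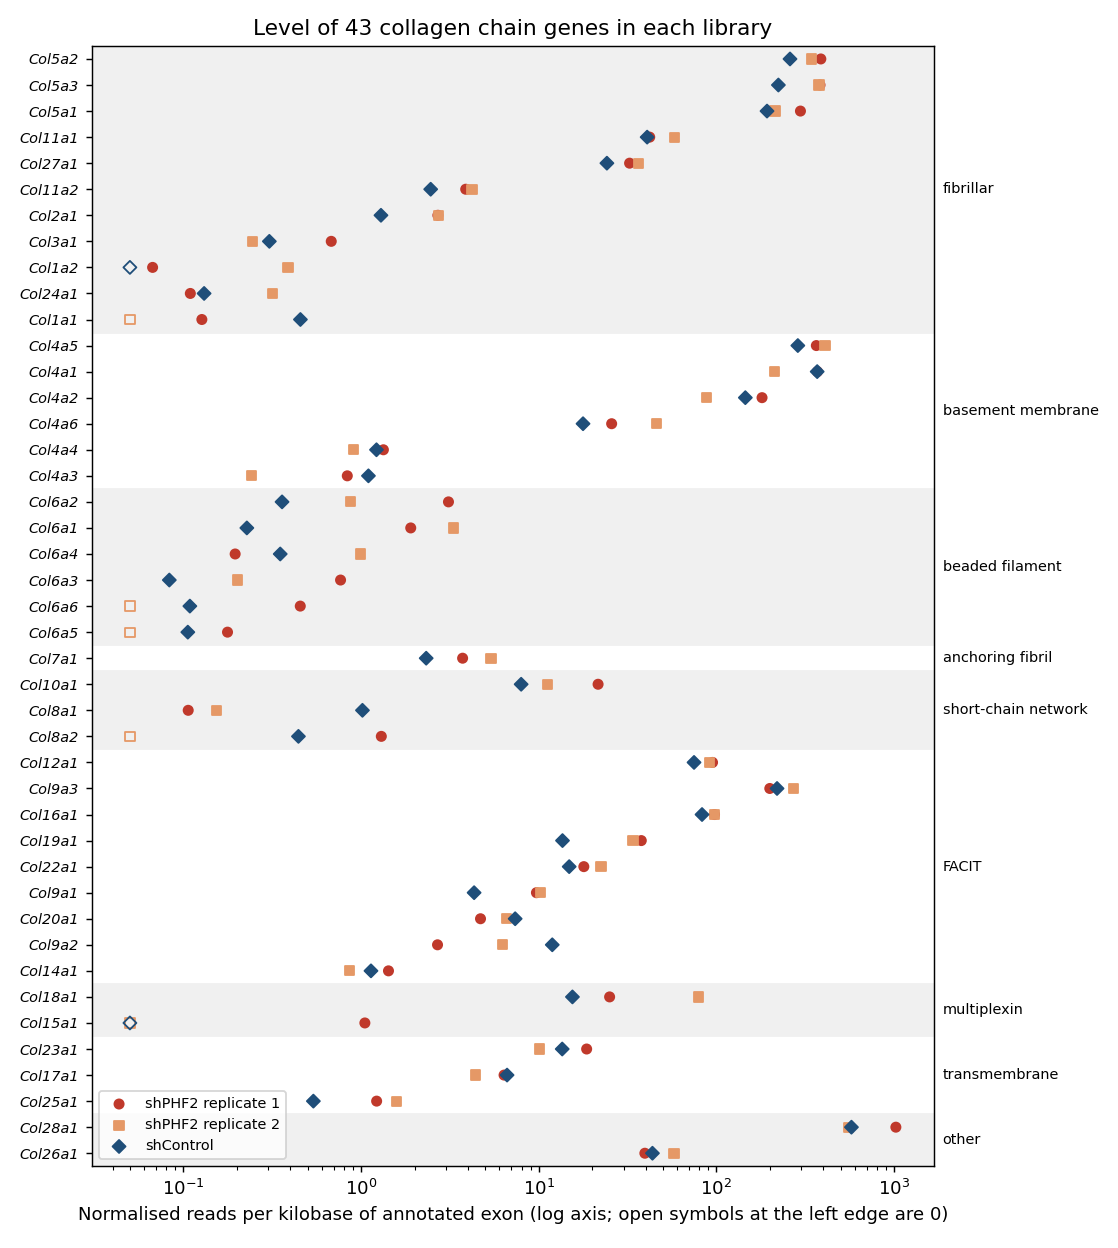
Level of each of the 43 collagen chain genes in normalised reads per kilobase of annotated exon (log axis), by structural class, for shPHF2 replicate 1 (red circles), shPHF2 replicate 2 (orange squares) and shControl (blue diamonds), with open symbols for 0 reads. Col28a1 lies furthest right, between 557 and 1023, with Col4a1, Col4a5, Col9a3 and the type V chains next to it, while Col1a1, Col1a2 and Col3a1 lie below 1.

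Setting shPHF2 against shControl asks how lowering Phf2 changes the collagen transcripts. Of the 43 collagen genes 29 had a mean of at least 10 normalised reads over the 3 libraries and were tested, and 2 passed the test, both higher in shPHF2 (Col5a3 and Col19a1; limma on log2(value + 1), Benjamini-Hochberg adjusted p under 0.05 over 14148 genes). That is 6.90% of the collagens tested, against 14.3% of all genes tested (7.22% higher and 7.11% lower). Most of the others lay above the control without passing. Both shPHF2 libraries were above shControl for 19 of the 29 genes and both below for 3, while this held for 41.4% and 41.8% of all genes tested. The median log2 fold change of the 29 genes was 0.43, with 0.45 in replicate 1 and 0.47 in replicate 2, against -0.0057 over all genes tested. These figures describe the genes that passed the filter on low values, and not the 14 that did not. Col6a2 and Col25a1, at 2.99 and 6.98 normalised reads in shControl, passed that filter only through their shPHF2 values. Both are among the 19 genes and in the median, so these figures lean upward. All limma calls given here, that of Phf2 included, were lost with no filter, with no mean-variance trend and with quantile normalization.

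The collagens tested are longer and richer in GC than other genes, with a median of 56.1% GC against 49.7% in all genes tested. A correction for GC content and length, fitted to the log2 difference of each shPHF2 library from shControl, gave a median of 0.35. It left 20 of the 29 genes with a positive log2 fold change, against 23 without it. Such a fit also takes out any effect of the knockdown that follows GC content or length. The exons of these genes overlap those of another gene of the table by at most 22 bases, except for Col9a3, which shares 234 bases (6.07% of its exon length) with Tcfl5 on the opposite strand, and the strand setting of the counting is not known.

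**Figure D2:**
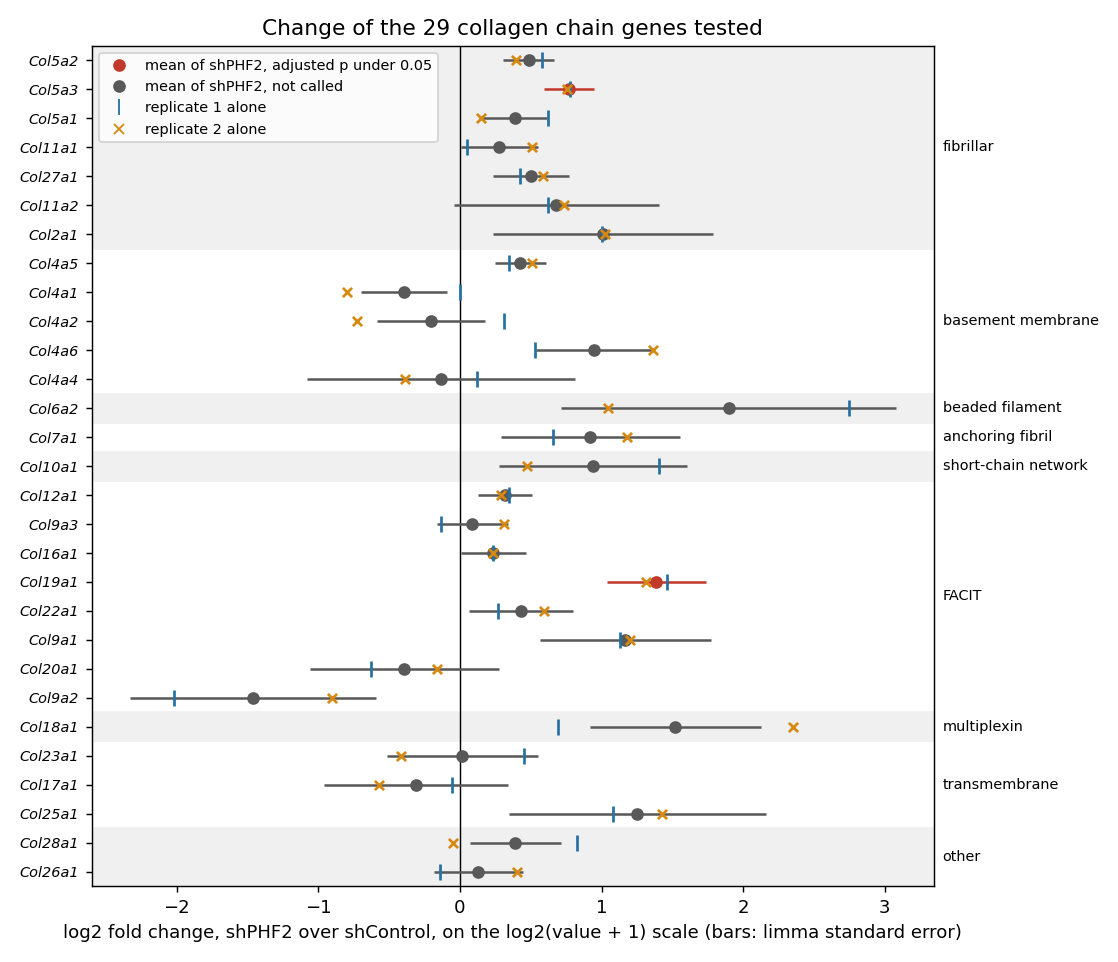
Log2 fold change of shPHF2 over shControl for the 29 collagen genes tested, by class, on the log2(value + 1) scale, with the limma standard error as bars and each replicate alone as a blue tick (replicate 1) or an orange cross (replicate 2). Col5a3 at 0.77 and Col19a1 at 1.39 (red) passed the test, and Col4a1, Col4a2, Col28a1 and Col18a1 show the replicates far apart.

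Among the fibrillar collagens, type V was abundant and its Col5a3 chain rose. Col5a3 (chr9:20770050-20815067, minus strand) had 2607 and 2570.4 normalised reads in the shPHF2 libraries, against 1520.1 in shControl. The shPHF2 libraries lay close together and well above the control, at 1.70-fold for the mean of 2589 ± 25.8 (SD, n = 2). On the log2 scale the change was 0.77 (SE 0.18; adjusted p = 0.028 by limma). Type V collagen sets the diameter of fibrils, and the Col5a3 chain joins Col5a1 and Col5a2 chains in one of its forms. The other chains were higher in both shPHF2 libraries too but did not pass. Col5a2 had 3712 and 3279 normalised reads in shPHF2, against 2489 in shControl, 0.49 higher on the log2 scale (standard error 0.18, limma adjusted p = 0.11). Col5a1 had 2523 and 1813 in shPHF2, against 1636 in shControl, with replicate 2 near the control (log2 fold change 0.39; SE 0.23; limma, adjusted p = 0.30). Per kilobase, the ratio of Col5a3 to Col5a1 was 1.29 and 1.77 in shPHF2 and 1.16 in shControl. Corrected for GC and length, Col5a3 had a log2 fold change of 0.55 and did not pass (limma, adjusted p = 0.066).

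The other fibrillar genes tested were Col2a1, Col11a1, Col11a2 and Col27a1, chains best known from cartilage. All 7 fibrillar genes tested, of 11 in the family, had both shPHF2 libraries above the control, as did 41.4% of all genes tested. Their median log2 fold change was 0.50, and Col5a3 alone of them was called. Col1a1, Col1a2, Col3a1 and Col24a1 were too low to be tested and are not in these figures. Col27a1 had 423 and 473 normalised reads in shPHF2, against 315 in shControl (limma, adjusted p = 0.24). Col11a1 had 537 and 739 against 519, so that replicate 1 was within a few percent of the control (limma, adjusted p = 0.53). Col2a1 and Col11a2 were low, at 25.0 to 28.9 normalised reads in shPHF2, against at most 16.9 in shControl (limma, adjusted p = 0.42 and 0.57 for Col2a1 and Col11a2).

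The start region of Col5a3 is shown because it belongs to the most abundant collagen gene that passed the test. It covers 250 bases before to 50 after the RefSeq start (GRCm38.p6, chr9:20815018-20815317, minus strand, written 5′ to 3′), with capitals wherever either strand reads GGGCGG, known as the GC box, or else ATTGG, a motif bound by the factor NF-Y.
Col5a3: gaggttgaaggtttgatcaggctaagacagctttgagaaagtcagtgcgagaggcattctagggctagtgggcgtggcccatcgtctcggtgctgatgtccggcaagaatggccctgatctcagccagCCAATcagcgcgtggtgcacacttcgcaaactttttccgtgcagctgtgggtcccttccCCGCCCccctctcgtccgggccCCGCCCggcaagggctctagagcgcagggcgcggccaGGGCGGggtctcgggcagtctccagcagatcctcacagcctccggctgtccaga
It holds GGGCGG 3 times and ATTGG 1 time, and TATAAA 0 times. Of 32851 promoter windows of this length, 35.7% hold GGGCGG, 37.4% ATTGG and 13.6% TATAAA on either strand. Entries were present for 34 of the 43 collagen genes, and 62.2%, 35.1% and 10.8% of their 37 windows held these letters. A match is a description of the letters and not a binding site.

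Type IV, the collagen of basement membranes, was carried mainly by 2 pairs of neighbouring genes, and none of its genes passed the test. Col4a1 and Col4a2 encode the chains of the network found in all basement membranes, and lie head to head on chromosome 8. Col4a1 (chr8:11198423-11312826) had 2762 and 1585 normalised reads in the shPHF2 libraries, against 2755 in shControl. Replicate 1 equalled the control and replicate 2 was far below it (log2 fold change -0.40; SE 0.30; limma, adjusted p = 0.42). Col4a2 (chr8:11312805-11449287) had 1196 and 582 in shPHF2, against 963 in shControl, again with the control between the replicates (log2 fold change -0.21; SE 0.38; limma, adjusted p = 0.76). The 95% interval of the log2 fold change ran from -1.09 to 0.30 for Col4a1 and from -1.09 to 0.67 for Col4a2, so neither a marked fall nor a small rise can be told from no change. Per kilobase, Col4a1 stood at 2.05 and 2.41 times Col4a2 in shPHF2 and 2.54 times in shControl.

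Their start regions are shown because they overlap and the pair shared the low value of replicate 2. The RefSeq starts lie 21 bases apart with the transcribed stretches overlapping, and the windows (GRCm38.p6; Col4a1 chr8:11312777-11313076 on the minus strand, Col4a2 chr8:11312555-11312854 on the plus strand) share 78 bases. Both are written 5′ to 3′ along their own gene, and the capitals mark the shared stretch, which each shows as the reverse complement of the other.
Col4a1: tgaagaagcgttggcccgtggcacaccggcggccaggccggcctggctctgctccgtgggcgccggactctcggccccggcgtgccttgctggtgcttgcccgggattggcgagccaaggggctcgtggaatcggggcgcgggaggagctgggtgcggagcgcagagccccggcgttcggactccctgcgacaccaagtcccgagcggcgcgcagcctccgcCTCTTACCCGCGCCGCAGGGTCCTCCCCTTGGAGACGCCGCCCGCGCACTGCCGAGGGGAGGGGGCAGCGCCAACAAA
Col4a2: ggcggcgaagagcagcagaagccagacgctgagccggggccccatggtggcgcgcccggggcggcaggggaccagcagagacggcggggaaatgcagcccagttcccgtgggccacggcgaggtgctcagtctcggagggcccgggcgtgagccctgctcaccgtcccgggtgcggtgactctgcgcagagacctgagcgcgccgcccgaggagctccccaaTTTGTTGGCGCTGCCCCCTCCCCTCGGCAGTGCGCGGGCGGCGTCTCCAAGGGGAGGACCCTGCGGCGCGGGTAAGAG
GGGCGG occurs 1 time in the Col4a1 window and 3 times in the Col4a2 window, and ATTGG 1 time in each. The GC content is 74.0% and 73.7%.

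Col4a5 and Col4a6 form a second head-to-head pair on the X chromosome, with RefSeq starts 1343 bases apart, and encode chains of the basement membranes of smooth muscle, skin and kidney. Col4a5 (chrX:141475385-141689234) had 2453 and 2743 normalised reads in shPHF2, against 1930 in shControl, 0.43 higher on the log2 scale (standard error 0.18, limma adjusted p = 0.15). Col4a6 (chrX:141165403-141474076) had 205 and 365 in shPHF2, against 142 in shControl, 0.95 higher on the log2 scale (standard error 0.41, limma adjusted p = 0.16). Both genes were above the control in both shPHF2 libraries, and neither passed the test. Per kilobase, Col4a5 and Col4a6 together stood at 0.710 and 1.51 times Col4a1 and Col4a2 together in shPHF2, and at 0.593 times in shControl. The larger ratio is that of replicate 2, and replicate 1 lies closer to the control. Col4a3 and Col4a4, the remaining chains, had at most 14.2 normalised reads in any library.

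**Figure D3:**
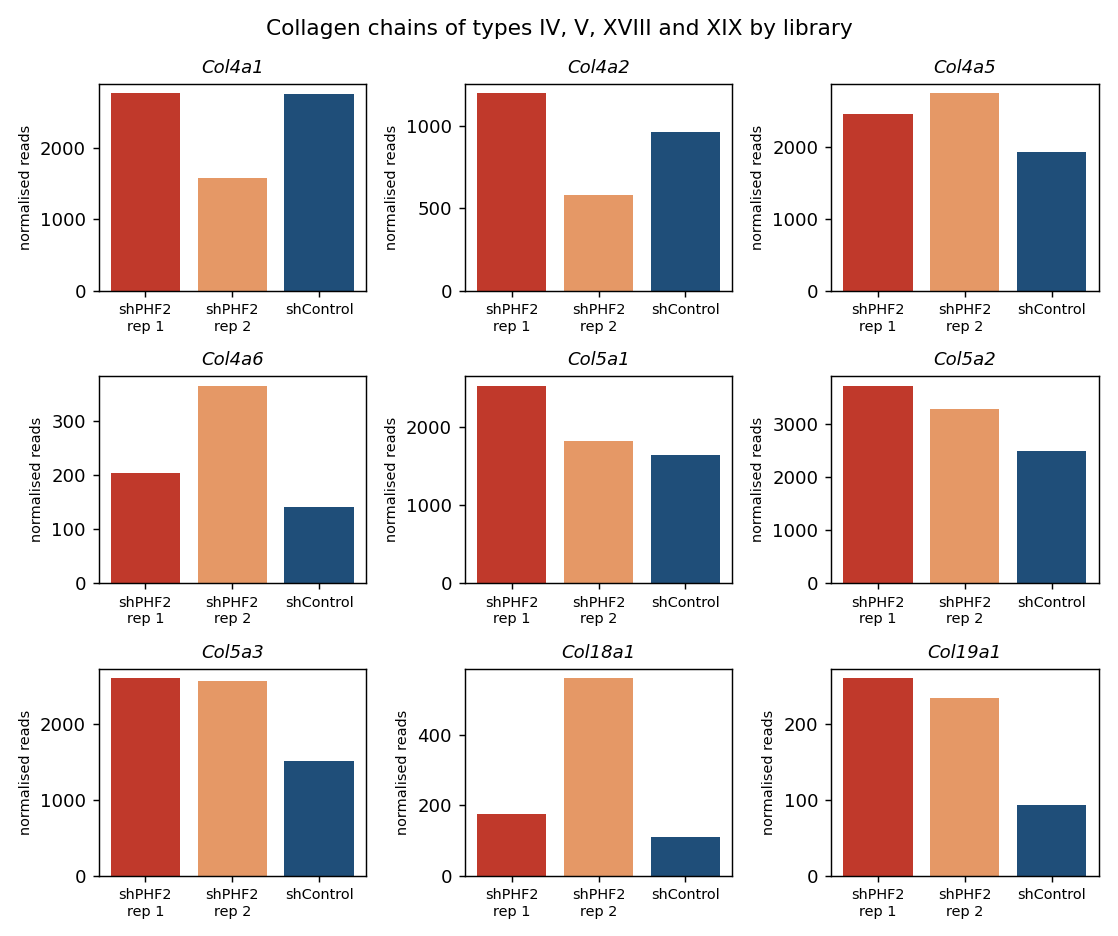
Normalised reads of 9 collagen genes in shPHF2 replicate 1, shPHF2 replicate 2 and shControl, 1 bar per library, each panel on its own linear axis from 0. Col5a3 and Col19a1 stand at a similar height in both shPHF2 libraries above shControl, whereas Col4a1 and Col4a2 are low in shPHF2 replicate 2 alone and Col18a1 is high mainly there.

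Among the FACIT collagens Col19a1 rose. Its chain is known in the mouse brain from interneurons, where it takes part in the forming of inhibitory synapses. Col19a1 (chr1:24261890-24587472, minus strand) had 260.1 and 234 normalised reads in the shPHF2 libraries, against 93.7 in shControl. Both shPHF2 libraries were at more than double the control, with a mean of 247 ± 18.5 (SD, n = 2) that was 2.64-fold higher. On the log2 scale the change was 1.39 (SE 0.35; adjusted p = 0.037 by limma), and DESeq2 on whole reads placed it just outside the threshold (adjusted p = 0.051). Its start region (GRCm38.p6, chr1:24587388-24587687, minus strand, 5′ to 3′), shown as that of the second gene that passed, holds none of the 3 motifs searched, so it has no capitals.
Col19a1: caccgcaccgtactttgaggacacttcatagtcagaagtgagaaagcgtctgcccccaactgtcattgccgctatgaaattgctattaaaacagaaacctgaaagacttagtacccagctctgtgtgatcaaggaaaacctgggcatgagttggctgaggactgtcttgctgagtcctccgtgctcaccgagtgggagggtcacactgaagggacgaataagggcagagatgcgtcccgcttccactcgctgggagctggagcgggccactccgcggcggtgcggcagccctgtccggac

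None of the other FACIT genes passed the test. Col12a1 had 1448 and 1390.1 normalised reads in shPHF2, against 1139 in shControl, and Col16a1 had 659 and 659 against 560.2, neither called (limma, adjusted p = 0.30 and 0.53). The chains of type IX, which form a trimer in cartilage, lay on different sides of the control. Col9a3 had 770 and 1048 normalised reads in shPHF2, against 845 in shControl. Col9a1 had 49.2 and 51.8 against 21.9, and Col9a2 had 8.34 and 19.3 against 36.9. Col9a1 was thus above and Col9a2 below the control in both shPHF2 libraries, and none of the 3 was called (limma, adjusted p = 0.85, 0.23 and 0.30 for Col9a3, Col9a1 and Col9a2). Per kilobase, Col9a3 stood at 20.6 and 26.6 times Col9a1 in shPHF2 and at 50.7 times in shControl. Col22a1, a collagen of tissue junctions, had 165 and 206 normalised reads in shPHF2 against 137 in shControl (limma, adjusted p = 0.47). Col20a1 had 24.2 and 33.8 against 37.9 (limma, adjusted p = 0.73).

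Col18a1, a basement membrane multiplexin whose C-terminal part is released as endostatin, was higher in both shPHF2 libraries but by very different amounts. It had 176 and 559 normalised reads in shPHF2, against 109 in shControl. The mean of 368 ± 271 (SD, n = 2) was 3.38 times the control, a log2 difference of 1.52 (SE 0.60; adjusted p = 0.13 by limma). Replicate 1 alone gave 0.69 and replicate 2 alone 2.35. DESeq2 on whole reads called it (adjusted p = 0.033), along with Col5a3, as 2 of the 29 collagens against 14.0% of all genes tested. Both shares count genes without an adjusted p as not called, here Col2a1, Col4a4, Col6a2, Col9a2, Col11a2, Col20a1 and Col25a1. The shares in the next sentence leave such genes out. The authors' deposited table called 3 of the 21 collagens with an adjusted p, against 16.0% of all genes with one. These were Col5a3 at an adjusted p of 0.020, Col18a1 at 0.029 and Col19a1 at 0.043 in the authors' deposited table, all higher in shPHF2.

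Col28a1 and the membrane-spanning collagens showed no call. Col28a1 had 5018 and 2729.6 normalised reads in the shPHF2 libraries, against 2822 in shControl, so replicate 1 was high and replicate 2 was at the control (limma, adjusted p = 0.45). Col26a1 had 323 and 471 in shPHF2, against 357 in shControl. Col23a1 had 107 and 57.9 against 77.7, and Col17a1, the collagen of hemidesmosomes, had 38.4 and 26.5 against 39.9. The adjusted p of these 3 genes was 0.78 to 0.99 by limma. Col25a1, a neuronal membrane collagen whose shed form binds amyloid, had 15.8 and 20.5 against 6.98 normalised reads (limma, adjusted p = 0.39). Col7a1 of anchoring fibrils had 38.4 and 55.5 in shPHF2 against 23.9 in shControl, and Col10a1 of cartilage growth plates 67.5 and 35.0 against 24.9. Both were above the control in both shPHF2 libraries with adjusted p of 0.37 and 0.38 (limma).

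The main type VI chains (Col6a1, Col6a2 and Col6a3) were near absent in shControl and had more reads in both shPHF2 libraries, on counts too low for a firm comparison. Col6a1 had 10 and 12 reads in the shPHF2 libraries against 1 in shControl, a ratio of 10.9 after scaling with a 95% counting interval of 1.76 to 449. Col6a2 had 31 and 6 reads against 3, a ratio of 6.10 with an interval of 1.93 to 30.9. Col6a3 had 11 and 2 reads against 1, a ratio of 6.43 with an interval of 0.965 to 273. For Col6a4, Col6a5 and Col6a6 the ratios were 1.48, 0.989 and 2.47, each with an interval that included 1. Such ratios were worked out only for genes with 1 to 3 reads in shControl, a choice that favours high ratios. The intervals cover counting error only and say nothing of the spread between cultures. Col6a2 alone of these reached the mean of 10 needed for the test, through its 31 reads in replicate 1, and was not called (limma, adjusted p = 0.32). The remaining genes below that mean were Col1a1, Col1a2, Col3a1, Col4a3, Col6a4, Col6a5, Col6a6, Col8a1, Col8a2, Col14a1, Col15a1 and Col24a1, and none of these or of Col6a1 and Col6a3 exceeded 14.5 normalised reads in any library. Within these 12, Col8a1, a chain of endothelial and corneal basement membranes, had 1 and 1 reads in shPHF2 against 8 in shControl.

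Collagen chains need a dedicated set of enzymes and chaperones, and several of these genes rose. Procollagen is hydroxylated on proline and lysine, glycosylated and folded in the endoplasmic reticulum, exported in COPII carriers, trimmed of its propeptides and cross-linked by lysyl oxidases. Of 31 assembly genes tested 8 rose and 1 fell (limma, where 14.3% of all genes tested were called), with a median log2 fold change of 0.36 over the list. This list and the partner lists below were chosen with earlier results of these data known, so their shares are descriptions only. The prolyl 3-hydroxylase gene Lepre1 had 2178 and 2099 normalised reads in shPHF2, against 1041 in shControl (log2 fold change 1.04; SE 0.18; limma, adjusted p = 0.013). The lysyl hydroxylase gene Plod1 had 2528 and 2743 against 1376, and the collagen galactosyltransferase gene Glt25d2 had 4035 and 3437 against 1719. The prolyl isomerase genes Fkbp10 and Fkbp14 had 1213 and 1980, and 3441 and 3742, in shPHF2, against 643 and 1621 in shControl. In these 5 genes both shPHF2 libraries stood clear of the control, at adjusted p of 0.0093 to 0.028 (limma).

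A pair of coat components of the carriers that export procollagen rose as well. Sec23a had 6525 and 6455 normalised reads in shPHF2, against 3189 in shControl, and Sec24d had 2434 and 2229 against 972, with log2 fold changes of 1.02 and 1.26 (limma, adjusted p = 0.012 and 0.0085). Creb3l1, a membrane-bound transcription factor that activates collagen genes in mouse bone, had 123 and 195 against 45.9, a call that passed in 1 of 8 other settings. The procollagen N-proteinase gene Adamts14 fell, to 1974 and 1865 in shPHF2, against 3062 in shControl (limma, adjusted p = 0.042), and did not pass with DESeq2 (adjusted p = 0.05002). The most abundant assembly genes were not called. Serpinh1, which encodes the collagen chaperone of the endoplasmic reticulum, had 38444 and 38982 normalised reads in shPHF2, against 28881 in shControl. Sparc, a collagen-binding matrix protein gene, had 33596 and 30659.7 against 26145, and P4hb, the shared subunit of prolyl 4-hydroxylase, had 19152 and 19776 against 21824.

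Of 10 collagen receptor genes tested 1 rose and 0 fell, a share below the 14.3% called over all genes. It was Itga2, the alpha subunit of a collagen-binding integrin, with 278 and 291 normalised reads in shPHF2, against 69.8 in shControl (log2 fold change 2.01; SE 0.35; limma, adjusted p = 0.012). Both shPHF2 libraries lie close together, and their mean is 4.08 times the control. The abundant receptor genes Itgb1, Gpr56 and Ddr1 were not called. Gpr56, a receptor for type III collagen on neural progenitors, had 9074 and 7910.3 normalised reads in shPHF2, against 10959 in shControl. Itgb1 had 31451 and 34066 against 30857, and Ddr1 had 3742 and 6442 against 5579.

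Among 10 genes for collagen-degrading proteases and their inhibitors 2 rose and 0 fell, near the 14.3% called over all genes. The inhibitor gene Timp2 had 3715 and 3833 normalised reads in shPHF2, against 1550.0 in shControl (log2 fold change 1.28; SE 0.17; limma, adjusted p = 0.0068). The membrane-type metalloproteinase gene Mmp14, a pericellular collagenase, had 360.2 and 1090 against 146, high mainly in replicate 2, with log2 fold changes of 1.30 and 2.90 for the replicates alone (limma, adjusted p = 0.043). Corrected for GC and length, Mmp14 had a similar log2 fold change of 1.99 and did not pass (limma, adjusted p = 0.074). Mmp15, the most abundant protease of the list, had 31952 and 36203 normalised reads in shPHF2, against 19595 in shControl, and missed the threshold (limma, adjusted p = 0.057). Timp3 had 2289 and 3382 against 3026.

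Of 13 basement membrane partners tested 4 rose and 1 fell, where 7.22% of all genes were called higher and 7.11% lower. The list median was 0.60 in replicate 1 and -0.23 in replicate 2 on the log2 scale. Npnt (nephronectin, an integrin ligand) had 1336 and 1131 normalised reads in shPHF2, against 453 in shControl, and Frem1, of the Fraser complex, had 938 and 652 against 284. Smoc2 had 207 and 112 against 29.9, while its relative Smoc1 fell, to 1499 and 1513 in shPHF2, against 3172 in shControl (log2 fold change -1.07; SE 0.18; limma, adjusted p = 0.012). The nidogen gene Nid1, which links laminin to type IV collagen, had 247 and 708 against 104, log2 fold changes of 1.24 and 2.76 for the replicates alone (limma, adjusted p = 0.049). Its mean log2 fold change of 2.00 was 1.96 with a pseudocount of 5 and 1.97 after correction for GC and length, where it did not pass (limma, adjusted p = 0.053 and 0.074). Dag1 had 25250.2 and 25540.5 normalised reads in shPHF2 against 20428 in shControl, Agrn 14898 and 8368 against 9833, and Itga6 6688 and 5172 against 5642, none of them called. Perlecan (Hspg2) and Fras1, named after their values were seen, had 8105 and 2842, and 2940.4 and 1209, in shPHF2, against 4751 and 1653 in shControl. In 7 of the 13 partners (Agrn, Hspg2, Fras1, Frem2, Itga6, Nid2 and Pxdn) the control lay between the replicates, with replicate 2 the lowest library. The same held for 5 of the 29 collagens tested (Col4a1, Col4a2, Col4a4, Col23a1 and Col28a1). With replicate 1 lowest instead, the control lay between for 0 of the partners and 2 of the collagens. Over all genes tested, both shPHF2 libraries were above the control for 41.4% and below it for 41.8%. The share of all genes with replicate 2 lowest and the control between was not worked out, and the pattern was picked after the values were seen.

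**Figure D4:**
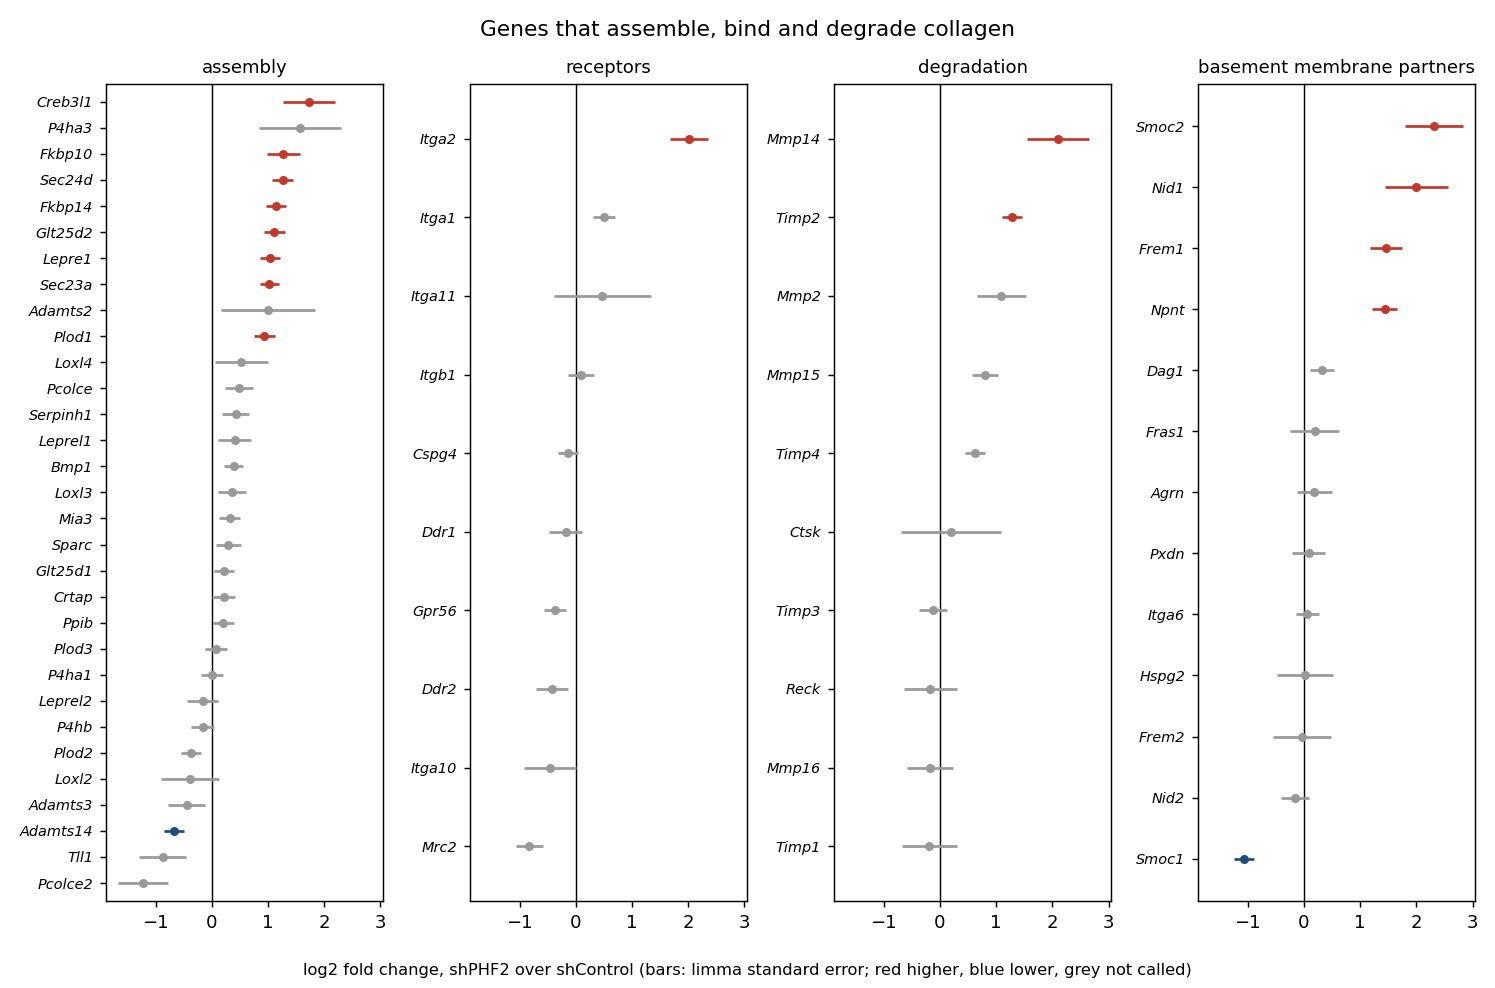
Log2 fold change of shPHF2 over shControl for the 64 tested genes that assemble collagen, act as its receptors, degrade it or accompany it in basement membranes, with the limma standard error as bars. Red points (15 genes) passed the test as higher, blue points (Adamts14 and Smoc1) as lower, and grey points were not called.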

How the data were processed

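The deposited table was made by the authors with HISAT2, HTSeq and DESeq2 on the build mm10, per the submitters' processing notes; versions, annotation and strand setting are not stated there. Each library value is a signal, taken here as read counts divided by a size factor by the authors. The headers of the library columns name no unit, and this scaling was inferred from the values. In each library 100% of values came out whole (within 0.001) after division by its smallest value, which gave back the reads. The deposited table also holds the authors' log2 fold change, its standard error and a Wald score, and p-values with adjusted p-values (empty for 4280 genes). The 4 rows that name no gene entered neither the tests nor the scaling by edgeR and DESeq2 here, but are part of the read totals given above. Whether they entered the authors' size factors is not known. Reads on no feature were 44.0%, 38.7% and 42.7% in shPHF2 replicates 1 and 2 and shControl, and reads of low alignment quality 15.9%, 20.5% and 17.0%.

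The 14148 genes whose mean over the libraries reached 10 were compared on the log2(value + 1) scale by limma 3.58.1 in R 4.3.3, with a mean-variance trend, two-sided, with Benjamini-Hochberg adjustment over all of them. The 1 residual degree of freedom comes from the shPHF2 libraries, with 6.94 prior degrees of freedom. Fold changes on this scale understate those of low genes. Alternatives were a pseudocount of 5, no filter, a mean of at least 50, no trend, quantile normalization, edgeR 4.0.16 and DESeq2 1.42.0 on whole reads, a loess correction for GC and length, and each shPHF2 library alone. In 10 simulated data sets 200 of 14148 genes were changed, far fewer than were called in the real data. There limma recovered 39.8% of 2-fold and 82.4% of 4-fold changes, and 10.4% of its calls were false, above the nominal level. With so different a share of changed genes, these figures need not hold for the real data.

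The collagen family and the gene lists were chosen with earlier results of these data known. Named were Phf2, the collagen genes, partner genes that passed the test or were among the 3 most abundant of their list, and the 2 leading and any called markers of each list; names outside this rule (further markers, Hspg2, Fras1 and the other partners with the control between the replicates) were chosen after their values were seen. Gene coordinates and exon lengths are from GENCODE M21 (GRCm38), found for 43 of 43 collagen genes, and promoters from RefSeq (GRCm38.p6).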

Additional observations from a re-analysis of the deposited data

How the results depend on the processing

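No gene was called by limma with no filter on low values, with no mean-variance trend or with quantile normalization, where 0 of 16977, 0 of 14148 and 0 of 14148 genes passed although 3893, 3300 and 3700 had an unadjusted p under 0.05. In the same 3 settings 0 collagen genes passed, with 4, 6 and 4 at an unadjusted p under 0.05, and 0 partner genes, with 20, 18 and 21, against 2 collagens and 17 partners as reported. edgeR called 2147 genes in all, 2 collagens and 18 partners, and DESeq2 called 1982, 2 and 16. With the GC and length correction 1 collagen was called (Col19a1). The median log2 fold change of the collagens was 0.39 with a mean of at least 50, 0.45 by DESeq2 and 0.35 with the GC and length correction, and 0.45 to 0.47 with 1 shPHF2 library left out. The adjusted p ranged over 8 settings from 0.018 to 0.18 for Col5a3 and from 0.034 to 0.15 for Col19a1, each called in 4 of them.

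Signs turned only for collagens that were not called. With 1 shPHF2 library left out the log2 fold change ran from -0.048 to 0.83 for Col28a1, -0.80 to 0.0036 for Col4a1, -0.72 to 0.31 for Col4a2, -0.14 to 0.31 for Col9a3, -0.14 to 0.40 for Col26a1, -0.42 to 0.45 for Col23a1 and -0.39 to 0.12 for Col4a4. Quantile normalization gave -0.0070 for Col26a1 and -0.26 for Col23a1, and the GC and length correction gave -0.067 for Col9a3, -0.073 for Col26a1 and -0.10 for Col23a1. The cause was not tested. Counts of calls without a shPHF2 library could not be made, since no residual degree of freedom is left. No paired analysis was possible because shControl has 1 library with no replicate number in its label.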
